A study of Mus musculus with 8 samples.

Results

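The genes of the oxidative phosphorylation (OXPHOS) subunits were taken from the deposited count table by biotype and name: protein-coding genes called Nduf followed by a, b, c, s or v and a digit, Sdha to Sdhd, those starting with Uqcr, Cyc1, Cox4 to Cox8 followed by a, b or c, those starting with Atp5, and the protein genes of the mitochondrial genome. This gave 97 of the 54532 genes in the table, 84 encoded in the nucleus and 13 in the mitochondrial genome. Complex I had 37 nuclear and 7 mitochondrially encoded members, complex II had 4 nuclear members, complex III had 9 and 1, complex IV had 16 and 3, and complex V had 18 and 2. Of the 97, 92 had a mean of at least 10 counts over the libraries, 2 had fewer (mt-Atp8 and Cox8b), and 3 had no count in any library (Cox7b2, Cox8c and the second of 2 table entries named Atp5o). The name rule takes in Atp5s, Cox7a2l and Ndufa4l2, which are not constant parts of a complex, and misses a few subunits such as Ndufab1, Cox4i1 and Cox4i2, which were read separately.

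OXPHOS couples the oxidation of NADH and succinate to the synthesis of ATP in the inner mitochondrial membrane. Complex I oxidizes NADH, complex II oxidizes succinate, complex III passes electrons to cytochrome c, complex IV reduces oxygen, and complex V, the ATP synthase, uses the resulting proton gradient. Most subunits are made from nuclear genes and imported, while a small set of core subunits of every complex but complex II is transcribed inside the organelle from the mitochondrial genome.

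The data were RNAseq counts from FACS-sorted GFP+ (mG+) cells of female mice aged 8 months. WT mice were Tie2e-cre; TERT+/+; mTmG and EC-Tert-KO mice were Tie2e-cre; TERTfl/fl; mTmG, so that both genotypes carried the Cre transgene, driven by the Tie2e promoter, and the mTmG reporter, which turns from membrane Tomato to membrane GFP where Cre has acted. Libraries came in 4 pairs of WT and KO: subcutaneous adipose tissue (SAT) of mice on high fat diet (HFD), and SAT, visceral adipose tissue (VAT) and gastrocnemius muscle of mice on chow. Each pair held 1 library per genotype, and whether a library pools several mice is not stated. With no replicate within a pair, the KO over WT values compare 2 libraries and their 95% intervals cover counting error only. Tests with residual spread came only from 1 model over all 8 libraries.

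Tert, the gene deleted in KO, had 114 counts in WT and 0 in KO in HFD SAT, 70 and 11 in chow SAT, 24 and 7 in muscle, and 3 and 9 in VAT. The VAT library labelled EC-Tert-KO thus had more Tert counts than its WT, and directions in VAT rest on the labels alone. Library totals ran from 6214269 to 18855772 counts. The sorted cells held RNA of several cell types: summed over each marker list, endothelial genes ran from 424 to 3630 CPM, counts scaled to a common library size by TMM, macrophage genes from 412 to 14600 (highest in VAT), neutrophil genes from 60.9 to 32000 (highest in muscle), T cell genes from 239 to 4140 and B cell genes from 157 to 2210 (highest in SAT), stromal genes from 710 to 3450, adipocyte genes from 170 to 976, erythroid genes from 18.6 to 708, mural genes from 69.1 to 745 and muscle fibre genes from 18.8 to 175. The SAT chow WT library stood apart in the nuclear RNA Malat1, at 299 CPM against 2180 to 6010 in the other 7 libraries. In bulk RNA, a change in the share of a cell type and a change in RNA per cell cannot be told apart.

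At the level of whole complexes, 1 library carried the main difference. The 84 nuclear members summed to 9560 CPM in SAT chow WT and to 3670 to 5180 CPM in the other 7 libraries, so that this library was 1.85-fold above the next highest, muscle WT, while the other 7 spanned a 1.41-fold range. In order of WT and KO, the nuclear sums were 4190 and 3760 CPM in HFD SAT, 9560 and 3850 in chow SAT, 3670 and 4390 in VAT, and 5180 and 4700 in muscle. Among the 92 members with a mean of at least 10 counts, 81 (88.0%) had their highest level in SAT chow WT, against 26.2% of all 16971 genes with such a mean. The 13 mitochondrially encoded members showed the same order of the first 2 libraries, with 37700 CPM in SAT chow WT, 23500 in muscle WT, and 17100 to 22700 in the rest.

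**Figure D1:**
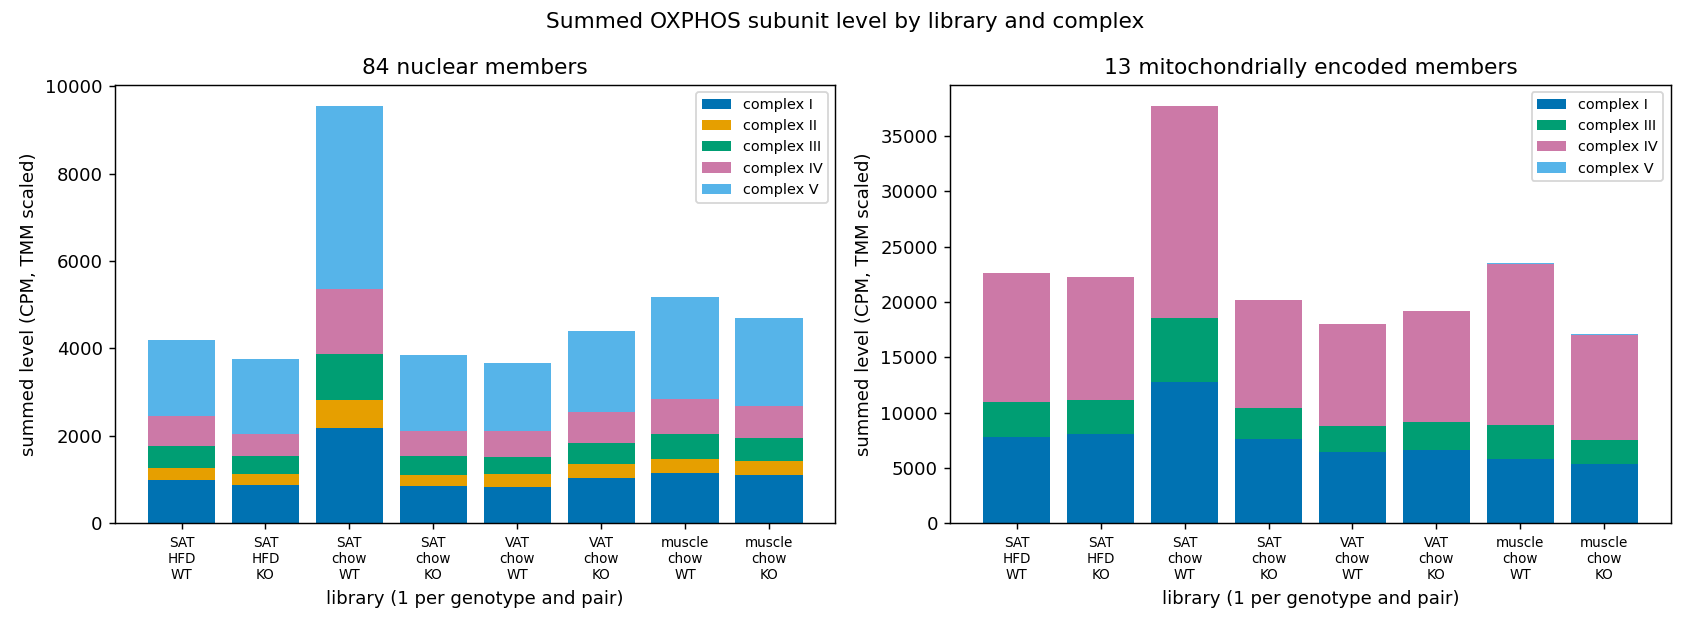
Summed level in TMM-scaled CPM of the 84 nuclear members (left) and the 13 mitochondrially encoded members (right) in each of the 8 libraries, with the bars split by complex. The SAT chow WT bar, at 9560 CPM for nuclear members, is the tallest in both panels, and the split by complex is alike in all bars on the left.

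The make-up of the nuclear sum by complex varied little beside its size. Complex V supplied 41.5 to 45.8% of it over the 8 libraries, complex I 22 to 23.7%, complex IV 13.4 to 16.4%, complex III 10.7 to 11.8% and complex II 6.20 to 7.95%. Complex IV was the only one with its lowest share in SAT HFD KO, and that share, 13.4%, stood beside 16.4% in its WT. Complex II had its highest share in VAT WT and its lowest in muscle WT. Per kilobase of gene, the highest nuclear members of each complex, averaged over the 8 libraries, were Ndufb11 at 58.3 CPM per kb, Sdha at 42.9, Uqcrh at 79.7, Cox7a2l at 189 and Atp5a1 at 153. The lowest with any count were Ndufb2 at 1.05, Sdhc at 16.4, Uqcrb at 16.9, Cox8b at 0.197 and Atp5s at 1.77.

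Nuclear respiratory factors are known to bind promoters of this gene group, so the gene starts were read for their core motifs and for a few common ones. RefSeq promoter sequences (GRCm38.p6) matched 68 of the 84 nuclear members by name and position. In the 250 bases before the annotated start, on either strand, the core of the NRF1 motif, CGCATGCG, was present in 6 of 68 members (8.82%) and in 2.09% of 17492 protein-coding genes. The ETS core CCGGAAG, bound by GABP (NRF2) among others, was present in 11 members (16.2%) and in 9.13% of all genes. The letters AAGATGGC, a core of the YY1 motif, were in 0 of 68 members and in 1.51% of genes, and the SP1 letters GGGCGG were in 36.8% of members and 42.7% of genes. These matches are a description of letters and not of binding. CCAAT was in 44.1% of members and 36.3% of genes, and TATAAA in 8.82% and 12.4%. For each complex, 1 well-expressed member with an NRF1 or ETS core is shown, with those letters in capitals (ETS reads CTTCCGG where it lies on the other strand).
Ndufa8, chr2:36049339-36049588, minus strand: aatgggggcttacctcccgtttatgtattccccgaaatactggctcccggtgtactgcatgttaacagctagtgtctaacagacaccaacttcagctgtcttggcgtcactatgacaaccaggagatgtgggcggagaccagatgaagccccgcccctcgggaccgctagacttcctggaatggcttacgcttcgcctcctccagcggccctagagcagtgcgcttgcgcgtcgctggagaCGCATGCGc
Sdhd, chr9:50603850-50604099, minus strand: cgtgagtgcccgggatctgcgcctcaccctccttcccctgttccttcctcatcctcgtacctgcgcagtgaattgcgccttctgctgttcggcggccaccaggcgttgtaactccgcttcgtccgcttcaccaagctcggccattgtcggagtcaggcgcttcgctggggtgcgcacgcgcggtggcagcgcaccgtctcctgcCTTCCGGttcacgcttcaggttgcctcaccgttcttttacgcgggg
Uqcrh, chr4:116075071-116075320, minus strand: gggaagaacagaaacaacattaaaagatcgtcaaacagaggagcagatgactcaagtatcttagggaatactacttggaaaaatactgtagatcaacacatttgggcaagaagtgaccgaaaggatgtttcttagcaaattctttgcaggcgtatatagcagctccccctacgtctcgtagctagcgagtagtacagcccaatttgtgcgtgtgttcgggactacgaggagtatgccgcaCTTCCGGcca
Cox6a1, chr5:115348959-115349208, minus strand: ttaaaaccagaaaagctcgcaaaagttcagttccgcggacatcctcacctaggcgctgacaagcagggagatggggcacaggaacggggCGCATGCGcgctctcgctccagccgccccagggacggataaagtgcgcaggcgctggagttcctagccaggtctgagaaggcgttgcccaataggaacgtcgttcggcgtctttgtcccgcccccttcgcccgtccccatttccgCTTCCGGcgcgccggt
Atp5h, chr11:115419920-115420169, minus strand: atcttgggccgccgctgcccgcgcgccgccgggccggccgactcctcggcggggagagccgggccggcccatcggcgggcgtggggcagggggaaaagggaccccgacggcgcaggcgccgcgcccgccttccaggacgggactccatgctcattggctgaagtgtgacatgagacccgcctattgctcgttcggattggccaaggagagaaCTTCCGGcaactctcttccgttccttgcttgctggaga

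Of these 5, Cox6a1 held both cores, Ndufa8 held the NRF1 core next to its start, and Sdhd, Uqcrh and Atp5h held the ETS core. Ndufa8 had 237 and 353 counts in WT and KO in HFD SAT, 871 and 295 in chow SAT, 208 and 389 in VAT, and 506 and 449 in muscle.

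The question for each pair was how the subunits stood in KO cells relative to WT. Within a pair, a gene was called higher or lower where KO and WT differed by more than 1.5-fold after TMM scaling, the counting interval excluded 0 on the log2 scale, and the mean of the pair was at least 10 counts. Such calls describe 2 libraries and were common: 25.2% of 15839 genes were called higher and 22.7% lower in HFD SAT, 33.2% and 30.2% of 16908 in chow SAT, 12.6% and 10.7% of 16439 in VAT, and 14.3% and 10.2% of 16967 in muscle. Against this background, nuclear members in chow SAT were called lower in 74 of 80 tested and higher in 2. In HFD SAT, 21 of 77 were called lower and 7 higher, which is 27.3% and 9.09% of those tested, beside 26.8% and 25.2% of protein-coding genes of the members' length. In VAT, 13 of 80 (16.2%) were called higher and 0 lower, where 18.2% of protein-coding genes of that length were called higher. In muscle 5 were called higher and 0 lower. Markers moved in VAT too. Called higher were 8 of 10 stromal genes (summed, 1080 to 2320 CPM) and 8 of 9 mural genes (183 to 745). So were 4 of 5 tested erythroid and 3 of 9 T cell genes. Called lower in VAT were 12 of 12 tested muscle fibre genes (175 to 18.8) and 3 of 15 endothelial genes (3270 to 2470), with 0 higher. In HFD SAT, 6 of 10 macrophage genes (705 to 412 CPM) and 8 of 9 tested muscle fibre genes (123 to 24.2) were called lower and 0 higher. Of 15 endothelial genes there, 6 were called lower and 2 higher. In the muscle pair, 8 of 10 stromal genes were called higher and 0 lower, and 6 of 9 mural genes higher and 1 lower. Called lower there were 7 of 10 macrophage, 5 of 9 T cell, 7 of 11 tested muscle fibre and 5 of 7 erythroid genes (708 to 132 CPM), with 0 higher. The part of these markers in the subunit levels was not tested. The median log2 KO over WT of nuclear members was −0.19 in HFD SAT, −1.32 in chow SAT, 0.25 in VAT and −0.05 in muscle, where the median of all tested genes was 0.06, 0.00, 0.01 and 0.00. Protein-coding genes of the members' length had medians of −0.05, −0.80, 0.18 and −0.01 in the same order.

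**Figure D2:**
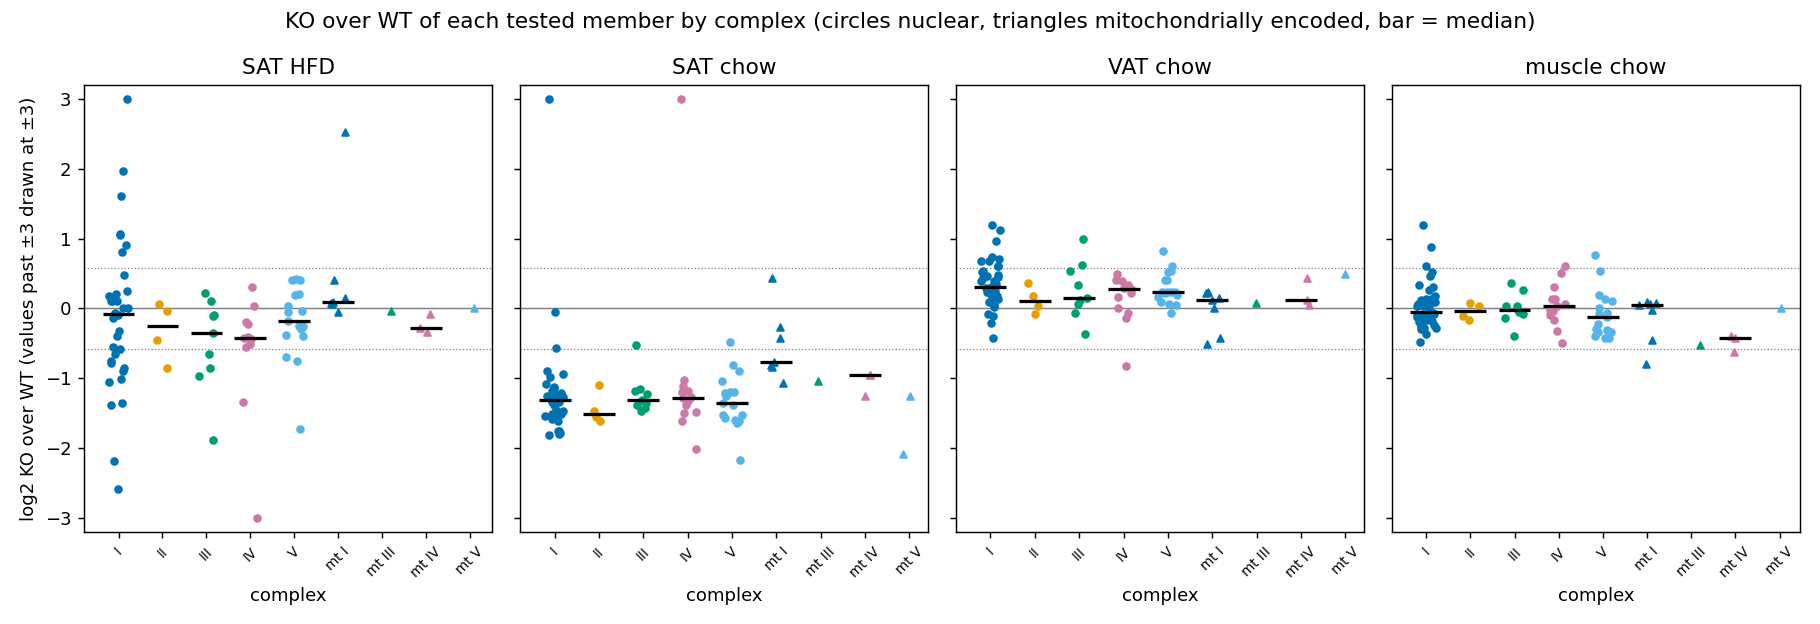
The log2 ratio of KO to WT for every member that averaged 10 or more counts over the 2 libraries, 1 panel per pair, by complex and origin. Circles are nuclear members, triangles mitochondrially encoded ones (mt), black bars the medians of groups of at least 3, and dotted lines mark 1.5-fold. In SAT chow the bars of all 5 nuclear complexes lie between −1.29 and −1.51, and in the other pairs they lie within 0.5 of 0.

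In chow SAT the 5 complexes moved together. The summed level of nuclear subunits went from 2170 CPM in WT to 845 in KO for complex I, from 651 to 264 for complex II, from 1050 to 436 for complex III, from 1500 to 577 for complex IV and from 4180 to 1730 for complex V, which is 2.57-, 2.46-, 2.42-, 2.59- and 2.42-fold lower. Of the tested members, 34 of 37 were called lower in complex I, 4 of 4 in complex II, 8 of 9 in complex III, 12 of 13 in complex IV and 16 of 17 in complex V. Of protein-coding genes of the members' length, 56.1% were called lower. The lower levels in KO are those of the other libraries: with SAT HFD WT set in place of SAT chow WT, a comparison chosen after seeing the data, the median of nuclear members in SAT chow KO was −0.13.

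Gene length moved with this result. In chow SAT, the median log2 KO over WT of tested protein-coding genes was −1.16 in the shortest of 20 length bins (median 998 bases) and 1.20 in the longest (15199 bases), while over the same range it went from −0.20 to 0.05 in HFD SAT, from 0.25 to −0.19 in VAT, and stayed near 0 in muscle. Nuclear members are short, with a median of 1532 bases against 4378 for tested protein-coding genes. Protein-coding genes of 905 to 2357 bases, the middle of the members' range, had a median of −0.80 in chow SAT, with 56.1% called lower. A length trend was also taken over 100 bins of all tested genes, of every biotype, and removed. The median of nuclear members was then −0.88 in chow SAT, and −0.87, −1.07, −0.77, −0.80 and −1.06 for complexes I to V. Protein-coding genes of 905 to 2357 bases kept a median of −0.27 there, so the trend of protein-coding genes was not fully removed. In VAT the median of nuclear members went from 0.25 to 0.16, and that of these protein-coding genes from 0.18 to 0.05. The part of length and RNA quality in the difference was not tested.

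**Figure D3:**
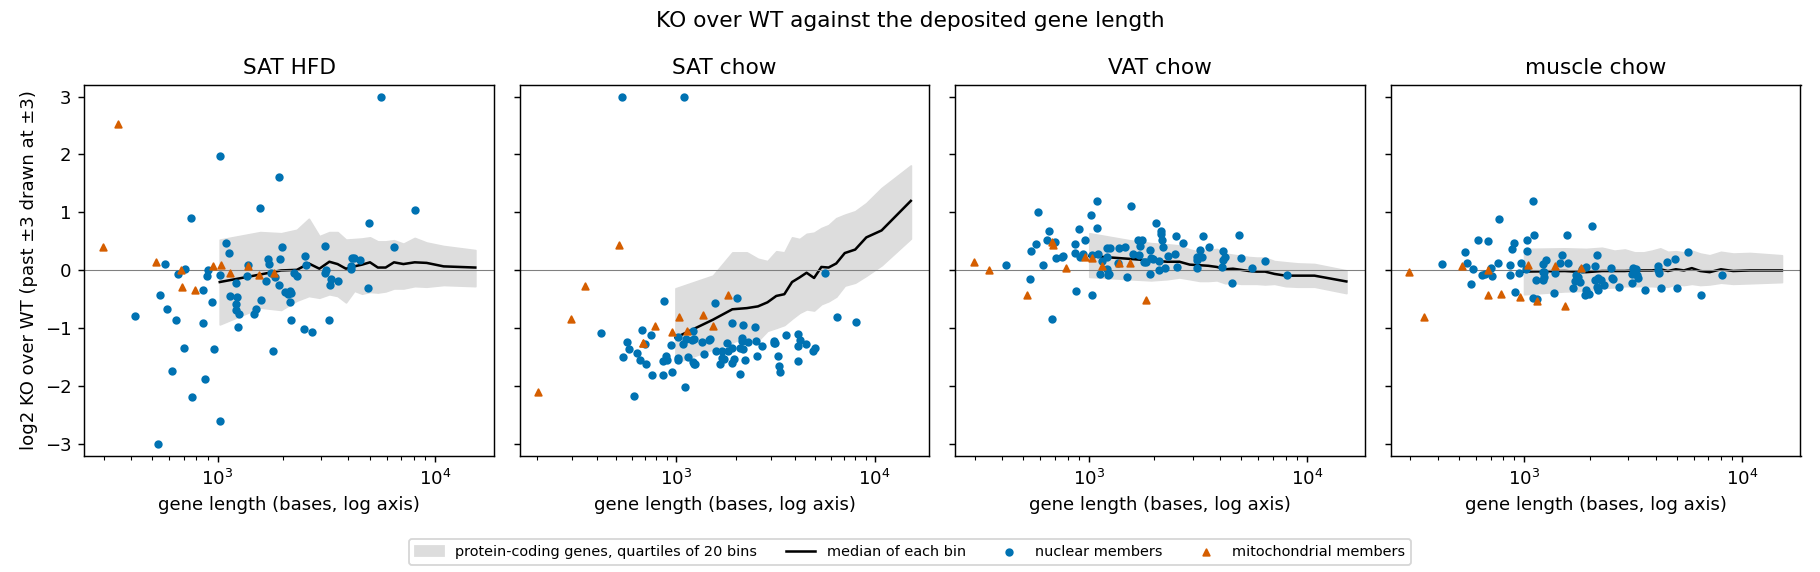
The log2 ratio of KO to WT against deposited gene length in each pair. The black line and grey band are the median and quartiles of tested protein-coding genes in 20 bins of length, blue circles nuclear members and orange triangles mitochondrially encoded members. In SAT chow the line climbs from −1.16 to 1.20 and most members lie below it. From the shortest to the longest bin, it goes from −0.20 to 0.05 in SAT HFD and from 0.25 to −0.19 in VAT chow. In muscle it stays near 0.

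Cell type markers moved in the same pair as well. From WT to KO in chow SAT, T cell genes went from 4140 to 1630 CPM, neutrophil genes from 257 to 60.9, macrophage genes from 2140 to 891, stromal genes from 795 to 3450 and mural genes from 69.1 to 234, with B cell genes at 2210 and 1540 and endothelial genes at 698 and 933. The summed 4 nuclear long noncoding RNAs (Malat1, Neat1, Kcnq1ot1 and Meg3) went from 377 to 6440 CPM. Transcripts of the mitochondrial ribosomal RNAs had 117756 counts in WT and 16374 in KO, beside 198 and 20485 in HFD SAT, 236 and 276 in VAT, and 677 and 384 in muscle. Of the tested genes, 9 of 9 T cell, 9 of 9 neutrophil and 7 of 10 macrophage markers were called lower, and 10 of 10 stromal, 7 of 9 mural and 6 of 15 endothelial markers higher. Called the other way were 1 macrophage and 1 mural marker. Of 5 tested erythroid markers 4 were called lower and 0 higher, and of 7 B cell markers 4 lower and 1 higher. The part of these in the lower subunit levels was not tested.

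Complex I is the largest of the complexes, and its nuclear members spread more in HFD SAT than in the other pairs. There 11 of 36 (30.6%) were called lower and 7 (19.4%) higher, beside 26.8% and 25.2% of protein-coding genes of the members' length. The median log2 KO over WT was −0.08, with quartiles of −0.75 and 0.22, beside quartiles of −0.70 and 0.65 for those genes. Values ran from −2.59 (Ndufa3) to 1.97 (Ndufa5) apart from Ndufb2, which had no count in WT. Ndufa3, an accessory subunit, had 233 counts in WT and 72 in KO in HFD SAT (−2.59, interval −3.0 to −2.21), 948 and 326 in chow SAT, 105 and 310 in VAT (0.96, 0.63 to 1.29), and 429 and 365 in muscle. It was thus lower in KO in both SAT pairs and higher in VAT. Ndufa5, another accessory subunit, went the other way in HFD SAT, with 34 counts in WT and 252 in KO (1.97, 1.46 to 2.55), and had 340 and 154 in chow SAT, 106 and 193 in VAT, and 171 and 179 in muscle. Ndufs1, the core subunit that carries several of the iron-sulphur clusters, had 268 and 1039 counts in HFD SAT (1.05, 0.86 to 1.25), 1465 and 790 in chow SAT (−0.89), 377 and 543 in VAT and 884 and 695 in muscle. It is the longest member, at 8086 bases, and was called higher only in the first of these pairs.

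Some complex I members had very low counts in one library of HFD SAT. Ndufb2 had 0 counts in WT and 89 in KO, which is at least 15.8-fold higher against a floor of 3 counts per library, and 106 and 102 in chow SAT, 47 and 74 in VAT and 122 and 126 in muscle. Its 0 is the only one among the 8 libraries, and its transcript shares 146 bases with the overlapping gene Braf. Ndufb3 had 99 and 40 counts in HFD SAT (−2.19), 505 and 143 in chow SAT (−1.81), 123 and 222 in VAT, and 200 and 307 in muscle (0.88, 0.62 to 1.15). Ndufa12 was higher in KO in HFD SAT (21 and 83 counts, 1.07), VAT (33 and 110, 1.12) and muscle (72 and 92, 0.61), and had 127 and 85 in chow SAT (−0.57). Its values are uncertain, since 402 bases are shared at 99.5% identity with the pseudogene Gm15920. Ndufb11, the highest nuclear member of complex I, had 48.0 and 48.3 CPM in HFD SAT, 99.3 and 34.0 in chow SAT, 38.6 and 45.3 in VAT, and 61.7 and 47.8 in muscle, so only chow SAT passed 1.5-fold. Ndufb9 was among the 3 lowest in VAT, with 130 and 146 counts (−0.43, −0.79 to −0.08), and had 187 and 224 in muscle (0.52).

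Ndufa4 and Ndufa4l2 are related genes, of which Ndufa4l2 is known as a hypoxia-responsive gene of pericytes and tumour cells. Ndufa4, now counted as part of complex IV by many, had 26.5 and 28.3 CPM in HFD SAT, 97.2 and 35.5 in chow SAT, 38.7 and 50.6 in VAT, and 56.5 and 54.5 in muscle. Ndufa4l2 had 17 and 0 counts in HFD SAT (at least 10.6-fold lower in KO), 3 and 50 in chow SAT (log2 3.85, 2.43 to 6.39), 34 and 119 in VAT (1.19, 0.64 to 1.8), and 16 and 31 in muscle (1.19, 0.30 to 2.19). It was the highest member by KO over WT in all 3 chow pairs. Mural cell markers, summed, went from 154 to 150 CPM in HFD SAT, 69.1 to 234 in chow SAT, 183 to 745 in VAT and 180 to 380 in muscle beside it, and their part was not tested.

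Complex II, whose 4 subunits form succinate dehydrogenase and also serve the citric acid cycle, had 1 call outside chow SAT. Sdha, the flavoprotein, had 136 and 143 CPM in HFD SAT, 333 and 155 in chow SAT, 147 and 167 in VAT, and 163 and 171 in muscle. Sdhb, the iron-sulphur subunit, had 271 and 495, 2000 and 682, 450 and 703, and 955 and 711 counts in the same order. Of the membrane anchors, Sdhc had 434 and 449, 1617 and 583, 421 and 821, and 702 and 596 counts, and Sdhd had 38.8 and 28.3, 94.4 and 30.9, 48.4 and 45.9, and 56.8 and 52.6 CPM. In chow SAT the log2 KO over WT was −1.10 for Sdha, −1.55 for Sdhb, −1.47 for Sdhc and −1.61 for Sdhd. Sdha was thus the least lowered, and its interval (−1.17 to −1.03), of counting error only, did not reach those of the other 3. Sdha is also the longest of the 4, at 4126 bases. With the length trend of all tested genes removed, the values were −0.86, −1.23, −1.15 and −0.99 in the same order. The only other call in complex II was Sdhc in HFD SAT, at −0.85 (−1.05 to −0.66). In VAT and muscle none of the 4 passed 1.5-fold.

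Complex III, the cytochrome bc1 complex, had 4 of 9 nuclear members called lower in HFD SAT, 8 lower in chow SAT, 2 higher in VAT and 0 in muscle. Of protein-coding genes of the members' length, 26.8% were called lower in HFD SAT, 56.1% lower in chow SAT and 18.2% higher in VAT. Uqcrh, the hinge protein and the highest member per length, had 134 and 68.4 CPM in HFD SAT (−0.97), 196 and 85.7 in chow SAT (−1.19), 66.2 and 63.2 in VAT, and 88.4 and 86.6 in muscle. Uqcrb, the lowest, had 60 and 30 counts in HFD SAT (−1.88, −2.59 to −1.25), 350 and 243 in chow SAT (−0.52), 204 and 242 in VAT, and 218 and 234 in muscle. It was the 1 member of complex III that missed the 1.5-fold line in chow SAT. Uqcr10 had 204 and 242 counts in HFD SAT, 926 and 359 in chow SAT, 138 and 419 in VAT (1.0, 0.72 to 1.29), and 519 and 442 in muscle. Uqcr10 and Cyc1, cytochrome c1, were the pair called higher in VAT.

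Complex IV, cytochrome c oxidase, has several subunits with paralogues that are known to differ between tissues. The ubiquitous forms were called lower in chow SAT, as were most nuclear members. In HFD SAT, Cox6a1 stood below the median of nuclear complex IV members, which was −0.43. Cox6a1 had 120 and 47.3 CPM in HFD SAT (−1.34), 209 and 86.8 in chow SAT (−1.27), 87.3 and 122 in VAT and 111 and 114 in muscle. Cox6b1 had 41.2 and 42.0, 122 and 40.0, 54.1 and 63.1, and 58.7 and 54.8 CPM in the same order, Cox7a2 had 27.5 and 18.8, 75.6 and 30.8, 30.5 and 37.0, and 45.8 and 44.5, Cox7b had 21.4 and 18.4, 64.8 and 28.1, 26.6 and 34.9, and 37.3 and 36.7, and Cox8a had 69 and 51.1, 174 and 62.0, 71.1 and 89.4, and 99.5 and 109. Each was highest in SAT chow WT. Cox7a2l, an assembly factor of supercomplexes and the highest nuclear member per length, had 236 and 174, 494 and 175, 140 and 158, and 209 and 148 CPM, with log2 KO over WT of −0.44, −1.5, 0.17 and −0.5.

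The paralogues known from muscle, heart or testis had few counts, with at most 5.07 CPM for Cox6a2, 4.42 for Cox6b2 and 4.11 for Cox7a1 in any library. Neither SAT HFD library had a count of Cox6a2 (0 and 0), which had 82 and 40 in chow SAT (−1.02), 19 and 16 in VAT, and 39 and 46 in muscle. Cox6b2 likewise had 0 in both SAT HFD libraries, 50 and 12 in chow SAT (−2.01, −3.10 to −1.13), 21 and 39 in VAT, and 47 and 60 in muscle (0.61, 0.04 to 1.20). Each 0 allows up to 0.434 CPM in WT and 0.232 CPM in KO, the level of 3 counts there. Cox7a1 had 21 and 0 counts in HFD SAT (at least 13.1-fold lower in KO), 2 and 28 in chow SAT (3.51, 1.82 to 6.93), 37 and 51 in VAT, and 30 and 31 in muscle. Its SAT chow WT library was the lowest with a count, as for Ndufa4l2. Cox8b had 2 counts in SAT chow KO, 4 in VAT WT and 0 elsewhere, and Cox7b2 and Cox8c had none. Skeletal fibre markers, summed, were at 51.2 CPM in muscle WT and 25.8 in muscle KO, and the brown fat gene Ucp1 was at 0 in 5 of 8 libraries. Among the subunits outside the name rule, Cox4i1 had 148 and 164 CPM in HFD SAT, 413 and 147 in chow SAT, 158 and 176 in VAT and 227 and 181 in muscle, while its paralogue Cox4i2 was at 0 in both SAT HFD libraries and reached 4.24 CPM in VAT KO.

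In CPM not scaled by length, complex V held the 2 nuclear members with the most counts, while per kb 3 members of complex IV (Cox7a2l, Cox8a and Cox6a1, at 189, 166 and 160 CPM per kb) stood above them. Atp5b, the catalytic beta subunit, had 431 and 497 CPM in HFD SAT, 1150 and 500 in chow SAT, 443 and 523 in VAT, and 718 and 580 in muscle. Atp5a1, the alpha subunit, had 378 and 365, 944 and 409, 343 and 404, and 532 and 455 CPM. The log2 KO over WT of Atp5b was 0.21, −1.20, 0.24 and −0.31 and that of Atp5a1 was −0.05, −1.21, 0.24 and −0.22, so the 2 subunits of the catalytic head, which assemble in equal number, moved alike in 3 pairs and by 0.26 apart in HFD SAT, where the intervals (0.14 to 0.27 and −0.12 to 0.02) did not meet. The 3 genes that encode the same mature subunit c of the rotor had 21.4 and 17.4 CPM (Atp5g1), 83.0 and 73.1 (Atp5g2), and 80.4 and 61.2 (Atp5g3) in HFD SAT. In chow SAT they had 66.9 and 25.5, 196 and 64.4, and 168 and 65.9, in VAT 22.2 and 34.0, 54.1 and 77.7, and 64.0 and 84.2, and in muscle 24.9 and 28.4, 89.2 and 72.6, and 83.7 and 66.0. Atp5g1 was higher in VAT KO past 1.5-fold (0.61, 0.37 to 0.86), and 411 of its bases are shared at 99.8% identity with the pseudogene Gm10039.

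The extremes of complex V were small members. Atp5k, the e subunit, had 137 and 77 counts in HFD SAT (−1.73), 285 and 63 in chow SAT (−2.17, −2.59 to −1.78), 65 and 105 in VAT, and 132 and 159 in muscle. It had the lowest KO over WT of all tested members in chow SAT. Atp5s, a coupling factor outside the core enzyme, had 14 and 20, 77 and 55, 26 and 70 (0.82), and 55 and 78 (0.76) counts, and was called higher in VAT and muscle.

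**Figure D4:**
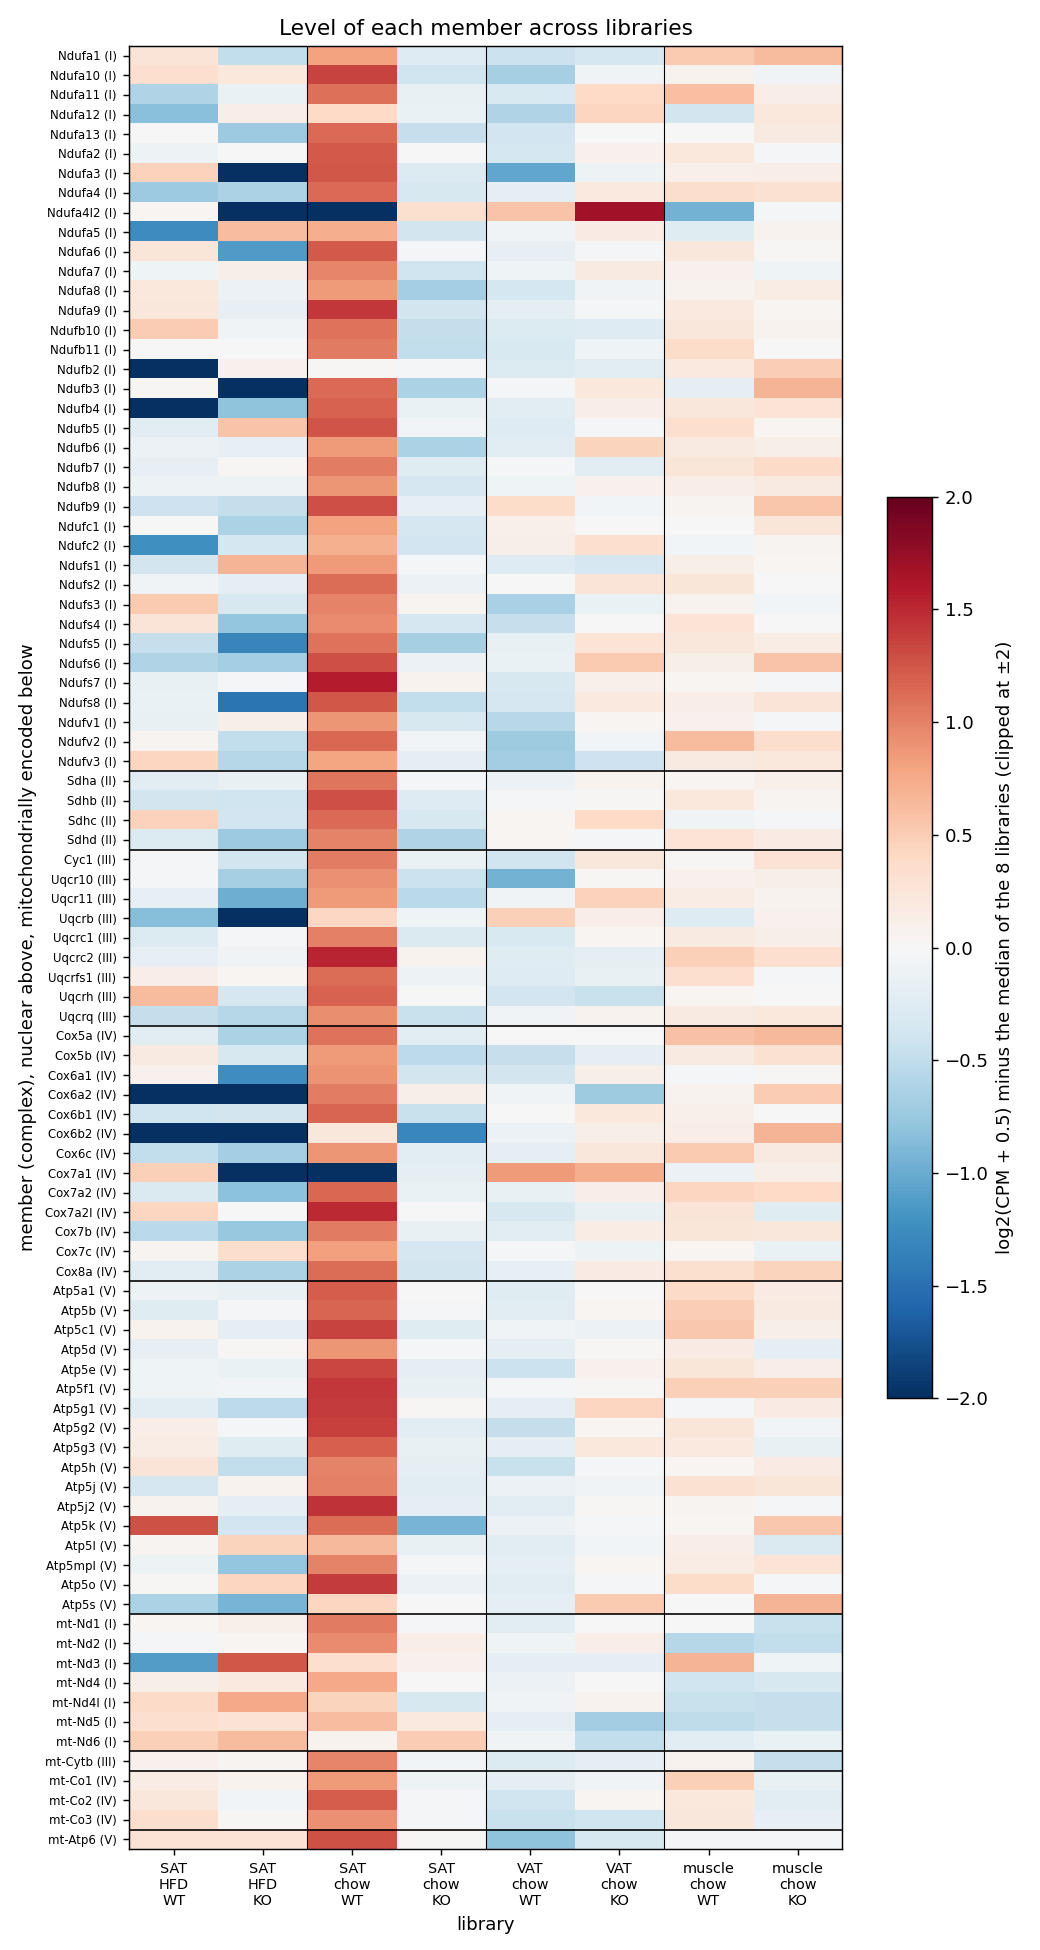
Level in each library of the 92 members that averaged 10 or more counts, as log2(CPM + 0.5) minus the median of the member's 8 libraries and clipped at 2 in either direction. Rows are grouped by complex, nuclear members above and mitochondrially encoded below. The SAT chow WT column is red for nearly all nuclear rows, with Ndufa4l2 and Cox7a1 in blue as the exceptions.

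The 13 mitochondrially encoded members held 2.52% of the WT library and 2.59% of the KO library in HFD SAT, 3.23% and 2.02% in chow SAT, 1.73% and 1.83% in VAT, and 2.20% and 1.79% in muscle. Exact 95% binomial intervals were narrow at these depths (2.51 to 2.53% for the shallowest library). The ratio of mitochondrially encoded to nuclear counts went from 5.41 to 5.92 in HFD SAT, from 3.94 to 5.25 in chow SAT, from 4.91 to 4.38 in the VAT pair and from 4.54 to 3.64 in the muscle pair. In chow SAT both sums were thus lower in KO, nuclear by 2.48-fold and mitochondrially encoded by 1.87-fold. The median log2 KO over WT of tested mitochondrially encoded members was 0.03 in HFD SAT, −0.95 in chow SAT, 0.12 in VAT and −0.21 in muscle. Called lower were 10 of 13 (76.9%) in chow SAT and 2 of 12 (16.7%) in muscle, beside 56.1% and 12.3% of protein-coding genes of 905 to 2357 bases. Called higher was 1 of 12 (8.33%), in HFD SAT, beside 25.2% of those genes. With the length trend of all tested genes removed, the SAT chow median was −0.25, beside −0.27 for protein-coding genes of 905 to 2357 bases. Mitochondrially encoded members had a median length of 784 bases. The shortest bin of protein-coding genes (median 998 bases) had a median log2 KO over WT of −1.16 in chow SAT, below the −0.95 of these members.

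mt-Co1, the catalytic subunit of complex IV, alone made up 48.1 to 61.9% of the mitochondrially encoded counts, most in muscle WT. It had 11600 and 11000 CPM in HFD SAT, 18900 and 9720 in chow SAT (−0.96), 9170 and 9980 in VAT, and 14600 and 9500 in muscle (−0.62). mt-Cytb, cytochrome b of complex III, had 3120 and 3050, 5780 and 2820, 2430 and 2560, and 3070 and 2140 CPM, with −1.04 in chow SAT and −0.52 in muscle. mt-Nd1 and mt-Nd2, membrane subunits of complex I, had 2310 and 2420, 4620 and 2210, 1930 and 2260, and 2260 and 1660 CPM (mt-Nd1), and 1460 and 1540, 2900 and 1650, 1410 and 1640, and 1010 and 1070 CPM (mt-Nd2). In muscle mt-Nd1 was lower in KO (−0.45) and mt-Nd2 was not (0.09), and mt-Nd4, with 1160 and 1220 CPM, stood with mt-Nd2 (0.07).

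The last 2 complex I genes in the order of the genome departed from the others. mt-Nd5 had 1900 and 1840 CPM in HFD SAT, 2310 and 1720 in chow SAT (−0.43), 1320 and 926 in VAT (−0.51, −0.55 to −0.48), and 1060 and 1100 in muscle. mt-Nd6, the only protein gene on the other strand, had 472 and 524 CPM in HFD SAT, 354 and 480 in chow SAT (0.44, 0.39 to 0.49), 322 and 239 in VAT (−0.43, −0.51 to −0.36), and 292 and 308 in muscle. It was the only mitochondrially encoded member with a higher level in KO in chow SAT, and of the 12 tested in VAT, it and mt-Nd5 were the 2 with lower levels in KO. mt-Nd5 and mt-Nd6 overlap by 14 bases on opposite strands, and since the use of strand in counting is not given in the sources used here, reads from either strand of that stretch cannot be told apart.

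**Figure D5:**
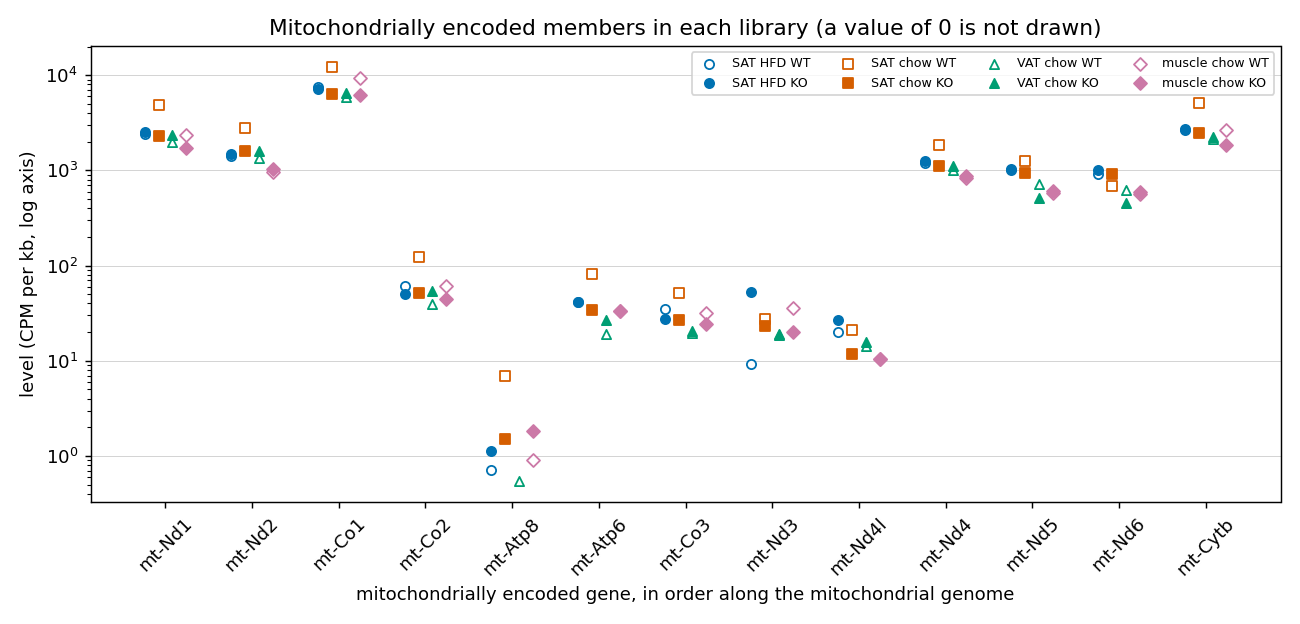
Level in CPM per kb (log axis) of the 13 mitochondrially encoded genes, in their order along the mitochondrial genome, with 1 point per library, open for WT and filled for KO. mt-Co1 averages 7650 CPM per kb, and the 6 genes from mt-Co2 to mt-Nd4l average at most 60.5, with mt-Atp8 lowest at 1.7.

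Levels along the mitochondrial genome broke into 2 ranges, with mt-Atp8, a gene of few counts, below both at 1.7 CPM per kb. The 5 genes mt-Co2, mt-Atp6, mt-Co3, mt-Nd3 and mt-Nd4l averaged 16.3 to 60.5 CPM per kb, while mt-Nd1, mt-Nd2, mt-Nd4, mt-Nd5, mt-Nd6, mt-Cytb and mt-Co1 averaged 720 to 7650. All 5 genes of the lower range have an annotated pseudogene on chromosome 1 of at least 99% identity over at least 99% of their length: Gm28661 for mt-Co2, Gm10925 for mt-Atp6, Gm28437 for mt-Co3, Gm28438 for mt-Nd3 and Gm10222 for mt-Nd4l. mt-Nd4 shares 63.6% of its length with Gm28439 and mt-Co1 shares 31.3% with Gm29216. Among annotated transcripts, the best copies of the others reached 81.4 to 96.7% identity, lowest for mt-Atp8. Unannotated sequence, such as that between the pseudogenes on chromosome 1, was not searched, so a closer copy of mt-Atp8 there would have been missed. Reads from stretches with a near-identical copy match 2 places equally or nearly equally well, so these 5 genes are reported as uncertain. How many counts the copy had beside the gene varied. In SAT chow WT, mt-Co2 and Gm28661 had 1350 and 950 counts, mt-Atp6 and Gm10925 had 905 and 914, and mt-Co3 and Gm28437 had 659 and 407. In the same library mt-Nd3 and Gm28438 had 155 and 31, and the partly shared mt-Nd4 and Gm28439 had 41613 and 201. How the authors' counting treated reads with several matches is not given in the sources used here, and its part in the low levels was not tested. The gene mt-Nd4l, chrM:9877-10173 on the plus strand of GRCm38, shows how complete the sharing is, with the 294 bases that are identical to Gm10222 (chr1:24612407-24612700) in capitals.
mt-Nd4l: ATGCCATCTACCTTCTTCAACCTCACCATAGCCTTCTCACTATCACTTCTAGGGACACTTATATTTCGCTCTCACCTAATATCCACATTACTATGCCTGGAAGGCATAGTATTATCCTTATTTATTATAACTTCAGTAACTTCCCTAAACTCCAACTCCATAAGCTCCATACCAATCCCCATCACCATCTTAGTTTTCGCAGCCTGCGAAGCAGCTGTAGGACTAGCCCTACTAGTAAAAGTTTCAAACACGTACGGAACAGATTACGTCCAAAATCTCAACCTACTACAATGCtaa

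Only the last 3 of its 297 bases, in lower case, lay outside the shared run. mt-Nd4l had 41 and 102 counts in HFD SAT, 101 and 56 in chow SAT (−0.84), 38 and 64 in VAT and 51 and 42 in muscle, beside 13 and 22, 67 and 46, 23 and 34, and 23 and 23 for Gm10222. mt-Nd3 had 22 and 240 counts in HFD SAT (2.52, 1.91 to 3.24), 155 and 129 in chow SAT, 59 and 90 in VAT, and 201 and 96 in muscle (−0.80, −1.17 to −0.44). Its copy Gm28438 had 3 and 8 counts in HFD SAT, too few to tell whether the copy moved with mt-Nd3. mt-Co2 had 41.8 and 34.5, 83.6 and 34.9, 27.1 and 36.8, and 41.4 and 30.8 CPM, mt-Co3 had 27.3 and 21.6, 40.8 and 21.1, 15.5 and 16.1, and 25.2 and 19.1, and mt-Atp6 had 28.1 and 28.1, 56 and 23.3, 13 and 18.3, and 22.7 and 22.7. mt-Atp8, which overlaps mt-Atp6 by 43 bases, had 1 and 3, 23 and 5, 1 and 0, and 3 and 5 counts.

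Nuclear members were searched for copies in the same way, over at least 100 bases at 99% identity. Of 84, 9 had such an annotated copy elsewhere in the genome. For 3 of them (Ndufa12, Atp5g1 and Atp5l) the copy carried at least 10% as many counts as the member, summed over the libraries. The pseudogene Gm6969, below that share, has 201 bases identical to Cox7a2l and differed between WT and KO. It had 3 and 217 counts in HFD SAT, 15 and 207 in chow SAT, 0 and 82 in VAT, and 11 and 180 in muscle. Cox7a2l had 1631 and 2253, 7989 and 2827, 1264 and 2168, and 3401 and 2005. The part of this copy in the Cox7a2l values was not tested. Likewise 14 of the 84 shared sequence with a gene overlapping them in position, Atp5j with Gabpa, Ndufb11 with Rbm10 and Ndufb2 with Braf among them.

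Over the 4 pairs together, the edgeR quasi-likelihood test, with pair as a block, called no member between KO and WT. Of 92 members, 0 had an adjusted p under 0.05, where 1 of 16971 genes (0.00589%) did. At an unadjusted p under 0.05 were 0 of 92 members and 277 of 16971 genes. DESeq2's Wald test also called 0 members. The median fitted log2 difference was −0.34 over members, with 83 of 92 below 0, against 0.03 over all genes and −0.16 over protein-coding genes of the members' length. By complex, the nuclear medians were −0.33, −0.45, −0.36, −0.36 and −0.33 for complexes I to V, with a median standard error of 0.33. Without the SAT chow pair the median over members was −0.01, and without the VAT pair −0.51. Sdha (log2 difference −0.19, SE 0.27), Cox7a2l (−0.56, SE 0.30) and Uqcrh (−0.57, SE 0.27) show the size of the error on single genes.

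Tissues on chow were compared in the same model, with genotype as a term. For muscle against SAT, 0 of 92 members passed (1.27% of 16971 genes did) and the members' median was −0.33. For VAT against SAT it was 0 of 92 (5.0% of genes) with a median of −0.56, and for muscle against VAT 0 of 92 (2.02% of genes) with a median of 0.24. At an unadjusted p under 0.05 were 1957, 3517 and 2171 of 16971 genes, in the same order. The counts of members were 2, 4 and 0. All of these were lower than in SAT: mt-Nd2 (−1.11, SE 0.42, adjusted p = 0.334) and mt-Nd5 (−0.88, SE 0.38, adjusted p = 0.426) in muscle, and Uqcrh (−1.01, SE 0.38, adjusted p = 0.181), Uqcrc2 (−1.11, SE 0.43, adjusted p = 0.195), Cox7a2l (−1.01, SE 0.42, adjusted p = 0.225) and mt-Atp6 (−1.29, SE 0.48, adjusted p = 0.183) in VAT. DESeq2's Wald test called mt-Nd2 in muscle against SAT (−1.0, SE 0.34, adjusted p = 0.0446) and none in the other comparisons of tissues. The direction rested on 1 library: without SAT chow WT, the medians against SAT were 0.53 for muscle and 0.31 for VAT, and without SAT chow KO, 13 and 33 members were called lower.

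For diet, HFD SAT was compared with chow SAT, and 0 of 92 members had an adjusted p under 0.05 (0.0% of 16971 genes did). The unadjusted count was 11 of 92, all lower on HFD and all nuclear. Over all genes it was 1577 of 16971, of which 1501 were lower. Among protein-coding genes of the members' length it was 291 of 2292, of which 284 were lower. The members' median was −0.64 against −0.32 over all genes and −0.59 over protein-coding genes of the members' length. By complex the nuclear medians were −0.62, −0.79, −0.73, −0.92 and −0.69, with 5 of the 11 in complex IV, 3 in complex I, 2 in complex III and 1 in complex V. The 2 smallest p-values in complex IV belonged to Cox6a2 and Cox6b2, for which the HFD libraries had 0 and 0 counts. DESeq2's Wald test called Cox6a2 (adjusted p = 0.019). Without SAT chow WT the median was 0.19, and without SAT chow KO 9 members were called lower on HFD. Set side by side, the KO libraries of SAT had nuclear sums of 3760 CPM on HFD and 3850 on chow, and the WT libraries 4190 and 9560.

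Other genes of mitochondrial biogenesis were read from lists compiled with the members. Of all tested genes, 30.2% were called lower and 33.2% higher in chow SAT, and 22.7% and 25.2% in HFD SAT. In VAT it was 10.7% and 12.6%, and in muscle 10.2% and 14.3%. Of protein-coding genes of the members' length, 56.1% were called lower in chow SAT. Of 46 assembly factors of the complexes, 33 of 44 tested were called lower in chow SAT and 2 higher, with a median of −0.96. In HFD SAT 10 of 43 (23.3%) were lower and 16 (37.2%) higher, with a median of 0.21. In VAT it was 1 and 10 of 42 (0.18), and in muscle 1 and 9 of 44 (0.18). Of 15 genes that follow mitochondrial content (citrate synthase, porins, import receptors, chaperones and carriers), 13 were lower in chow SAT with a median of −1.13, and in the other pairs the medians were −0.05, 0.23 and −0.21. Cs, citrate synthase, had 122 and 148 CPM in HFD SAT, 276 and 149 in chow SAT, 129 and 144 in VAT, and 196 and 167 in muscle. Slc25a3, the phosphate carrier, was the exception, with 648 and 751 CPM in chow SAT.

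Genes that replicate and transcribe mitochondrial DNA, 19 matched, had 8 called lower (42.1%) and 2 higher (10.5%) of 19 in chow SAT. All tested genes there were at 30.2% and 33.2%. The median of these 19 was −0.47 in chow SAT, and 0.19, −0.01 and 0.03 in HFD SAT, VAT and muscle. Tfam, which packages mitochondrial DNA and starts its transcription, had 34.0 and 45.1 CPM in HFD SAT, 66.0 and 54.1 in chow SAT (−0.29), 19.5 and 17.8 in VAT, and 32.7 and 28.7 in muscle. Polg2, the accessory subunit of the mitochondrial DNA polymerase, was higher in KO in chow SAT, 21.6 and 84.5 CPM (1.97). Of 10 regulators of biogenesis, 4 (40%) were called higher and 1 (10%) lower in chow SAT, beside 33.2% and 30.2% of all tested genes. The median of these regulators in chow SAT was 0.16. Nrf1 had 60.6 and 67.4 CPM there, Gabpa 85.7 and 65.3, and Pprc1 60.1 and 171 (1.51). The coactivator Ppargc1a stayed at or below 1.49 CPM in all libraries. The 1 lower regulator was Tert itself, which was on the list. In the fits across libraries, none of these lists had a gene called between KO and WT. Of the 9 subunits and partners outside the name rule, 6 of 8 tested (75%) were lower in chow SAT, beside 30.2% of all tested genes. Their median was −0.89.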

How the data were processed

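Cells were sorted for GFP and sequenced by the authors, who deposited whole-number read counts per Ensembl gene with annotation, and no normalization. Per the labels, RNA was isolated on columns and libraries were made with a SMARTER mRNA kit, while the methods give Trizol. The submitters' processing notes name HISAT2 2.0.5 and the builds GRCm38 and mm10, while the counting tool and use of strand are not given in the sources used here. Counts were scaled with TMM (edgeR 4.0.16). KO over WT within a pair used a prior count of 0.5 and exact conditional binomial 95% intervals. edgeR's quasi-likelihood test (robust, pair plus genotype, all 8 libraries) was run on the 16971 genes that averaged 10 or more counts, with Benjamini-Hochberg adjustment at 0.05. Since tissue and diet change from pair to pair, p-values measure only the spread between these libraries. DESeq2 1.42.0 was an alternative. The fit was tried on simulated counts with a fixed spread and no differences between pairs beyond the genes set to change. The interval was tried on simulated counts with counting error only. Neither trial shows the error or power at the spread of these libraries. Copies were found with blastn 2.17.0+ in GENCODE M21 transcripts, and promoters come from RefSeq. Members and lists were chosen with earlier results of these data known. Genes named were all mitochondrially encoded members, the Sdh genes, paralogue sets, the highest and lowest of each complex by CPM per kb, and the 3 highest and 3 lowest by KO over WT in each pair. Genes outside this rule (Ndufa8, Ndufs1, Cyc1, Atp5b, Atp5h, Uqcrc2, members named for a copy, an overlap or opposite calls, and list genes) were chosen after their values were seen.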

Additional observations from a re-analysis of the deposited data

Results flagged for a closer look

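In 19 of the 93 members tested in at least 1 pair (20.4%), KO was past 1.5-fold higher than WT in one pair and past 1.5-fold lower in another, against 23.0% of all genes tested in any pair. With 1 library per genotype the difference between pairs was not tested. The gap between the highest and lowest called log2 KO over WT was 9.45 for Cox7a1, a value that depends on the prior count since it rests on libraries of 0 and 2 counts, 3.54 for Ndufa3, 3.32 for mt-Nd3, 3.11 for Ndufa5, 3.07 for Ndufb3, 2.95 for Ndufb4 and 2.62 for Cox6b2. For 12 others the lower value was that of chow SAT. With the higher value in VAT, the gap was 2.36 for Ndufa10, 2.36 for Uqcr10, 2.21 for Ndufb6, 2.18 for Ndufs6, 2.0 for Ndufa11, 2.0 for Atp5g1, 1.89 for Ndufv2, 1.82 for Ndufv1 and 1.78 for Cyc1. With the higher value in HFD SAT, it was 2.15 for Ndufb5, 2.03 for Ndufc2 and 1.94 for Ndufs1.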

How the results depend on the processing

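DESeq2 size factors, library totals, a looser or stricter count filter and the fits with no replicate block or no genotype term left the count of members called at 0 in every comparison across libraries. DESeq2's Wald test gave 1 in muscle against SAT and 1 in HFD against chow. Leaving out 1 pair or library gave 0 to 0 members for KO against WT, 0 to 13 for muscle against SAT, 0 to 33 for VAT against SAT, 0 to 0 for muscle against VAT and 0 to 9 for HFD against chow, with every call from the fits without SAT chow KO, where chow SAT is 1 library assumed to vary like the rest. The medians over members ranged from −0.51 to −0.01, −0.89 to 0.53, −1.14 to 0.31, −0.16 to 0.62 and −1.27 to 0.19 in the same order. For nuclear members in chow SAT, library totals gave −1.09 and removal of the length trend of all tested genes gave −0.88. SAT HFD WT in place of SAT chow WT, added after seeing the data, gave −0.13. Mitochondrially encoded medians moved to 0.21 (mean of members) and 0.13 (length) in HFD SAT, −0.72 (library totals) and −0.25 (length) in chow SAT, −0.08 (length) in VAT, and −0.02 (a mean of at least 1 count) and 0.05 (members with copies left out, added after seeing the data) in muscle. The causes were not tested. As a percent of protein-coding counts, the mitochondrially encoded shares were 2.93, 2.75, 3.40, 2.13, 1.79, 1.89, 2.30 and 1.86 (SAT HFD, SAT chow, VAT and muscle, each WT then KO), and without the top 100 other genes of any library 3.63, 3.40, 4.62, 2.59, 2.28, 2.43, 2.94 and 2.33. With all mitochondrial genes the share moved to 2.79 in SAT HFD KO, 3.86 in SAT chow WT and 2.13 in SAT chow KO. Of 63 calls on named members, 61 held under DESeq2 size factors, 61 under library totals, 61 at a prior count of 5 and 63 with TMM on genes outside the mitochondrial genome, and the others kept their direction. No paired analysis was possible beyond the pair block because the labels number no replicates. With 6214269 counts in SAT HFD WT, members with few counts there, such as Ndufb2 and Cox7a1, are the least certain.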
